A study of Mus musculus with 10 samples.

Results

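The Nr4a receptors are 3 nuclear receptors encoded by Nr4a1 (also called Nur77), Nr4a2 (Nurr1) and Nr4a3 (Nor1). They were taken by gene symbol from a table of 17658 genes measured in 10 RNA sequencing libraries of mouse B cells, and all 3 passed the filter on low values that left 10225 genes to test. B cells came from spleen and lymph nodes of C57BL/6 mice aged 10 weeks and were enriched by magnetic removal of the other cells. The study was designed to find inducible genes that differ between wild-type mice and mice lacking Nr4a1. Its groups were Nr4a1+/+ B cells without stimulation (1 library), Nr4a1-/- B cells without stimulation (1 library), Nr4a1+/+ B cells given 10 µg/mL anti-IgM for 2 hours (4 libraries, A to D) and Nr4a1-/- B cells treated in the same way (4 libraries, A to D). Anti-IgM is an antibody that crosslinks the B cell antigen receptor and so imitates contact with antigen. The labels do not say which part of Nr4a1 the knockout allele removes, or whether each letter is a separate mouse, so p-values here measure the spread between these libraries, which may be technical.

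Nr4a proteins are called orphan receptors because their ligand pocket is filled by bulky side chains, so that they act without a classical hormone. Their activity depends in part on how much protein is made. They bind DNA alone at the NGFI-B response element or as dimers, and Nr4a1 and Nr4a2 can also pair with the retinoid X receptor. In lymphocytes the genes are immediate early genes: antigen receptor signals carried by calcium and by the MAP kinase cascade switch them on within minutes through factors such as CREB, MEF2 and SRF, and the proteins restrain activation. Nr4a2 is also known for its role in dopamine neurons, and Nr4a3 for its fusion in a human sarcoma.

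Levels are given as FPKM, which counts fragments relative to transcript length and to the mapped total, a unit in which different genes can be set side by side. Tests were run with limma on log2(FPKM + 1), with p-values adjusted over all 10225 genes by the Benjamini-Hochberg method, and called genes are those whose adjusted p was under 0.05. For the effect of anti-IgM the log2 change also had to reach 1 in either direction. Each stimulated library summed to between 557214 and 571784 FPKM, the unstimulated wild-type library to 674961 and its knockout-labelled counterpart to 595500. Summed FPKM of 5 B cell markers ran from 1260 to 3852, against 1.2 to 2.83 for 6 T cell markers, 0.88 to 1.74 for 3 NK cell markers and 24.96 to 129.8 for 6 myeloid markers. Of the B cell markers, Cd79a, Cd79b and Pax5 fell with stimulation. In bulk libraries fewer cells of a type and less RNA per cell cannot be told apart.

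Nr4a1 (ENSMUSG00000023034.7) lies at chr15:101254269-101274795 on the plus strand of GRCm38, the mm10 build. Nr4a2 (ENSMUSG00000026826.13) is at chr2:57106830-57124003 on the minus strand and Nr4a3 (ENSMUSG00000028341.9) at chr4:48045153-48086447 on the plus strand. The main coding transcripts in GENCODE M21 have 7, 8 and 8 exons and coding sequences of 601, 598 and 627 codons. Because the 3 genes rose together with anti-IgM, their promoters are shown here from RefSeq (GRCm38.p6), 5′ to 3′ on the strand of each gene. For Nr4a1 the stretch is chr15:101266596-101266845, which ends just before the RefSeq start and lies in an intron of a longer annotated transcript. For Nr4a2 it is chr2:57124004-57124253. For Nr4a3 it is chr4:48045055-48045172, cut short because GENCODE begins the first exon before the RefSeq start. The last 20 bases shown for Nr4a3 still lie in that exon. Capitals mark TGACG or its reverse complement CGTCA, the core of the cyclic AMP response element bound by CREB.
Nr4a1: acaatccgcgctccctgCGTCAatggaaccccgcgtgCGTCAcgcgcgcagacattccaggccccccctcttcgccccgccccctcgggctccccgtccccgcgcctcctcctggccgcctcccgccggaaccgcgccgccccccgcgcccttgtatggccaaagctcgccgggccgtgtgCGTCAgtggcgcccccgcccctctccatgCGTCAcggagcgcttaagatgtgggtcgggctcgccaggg
Nr4a2: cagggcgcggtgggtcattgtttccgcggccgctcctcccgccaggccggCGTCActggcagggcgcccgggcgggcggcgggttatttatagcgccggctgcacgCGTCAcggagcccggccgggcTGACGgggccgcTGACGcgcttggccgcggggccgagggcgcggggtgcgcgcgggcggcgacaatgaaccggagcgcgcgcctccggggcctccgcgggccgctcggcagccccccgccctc
Nr4a3: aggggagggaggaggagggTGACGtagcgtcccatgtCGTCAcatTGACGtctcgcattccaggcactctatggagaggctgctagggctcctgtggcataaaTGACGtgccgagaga

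Each of the 3 promoter windows, defined as 250 bases before to 50 after the RefSeq start, held 4 copies of TGACG counted on both strands. Relative to the start they stood at -233, -213, -69 and -40 in Nr4a1, at -200, -144, -123 and -111 in Nr4a2, and at -231, -213, -205 and -147 in Nr4a3. The Nr4a3 copy at -147 lies in the exon that GENCODE begins before the RefSeq start. At least 4 copies were present in 76 of 32851 mouse promoters of the same length (0.231%), in 57 of 7462 promoters of tested genes (0.764%) and in 9 of the 598 promoters of genes called higher with stimulation (1.51%). The 3 receptors were themselves tested and called higher, so their own promoters may be counted in each of these sets and raise its share. At least 1 copy was present in 20.8% of all promoters, 35.1% of those of tested genes and 40.5% of those of genes called higher. The windows were rich in G and C, at 72.3% in Nr4a1, 81.7% in Nr4a2 and 64.7% in Nr4a3.

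The context of the copies differed between the genes. In Nr4a1 all 4 copies formed part of TGCGTCA, whose 7 bases overlap the TGACG core and which 2.12% of all promoters and 4.46% of those of tested genes held at least once, while neither Nr4a2 nor Nr4a3 held it. The full palindrome TGACGTCA, present in 1.79% of all promoters and 3.71% of those of tested genes, was in none of the 3 windows. The NGFI-B response element AAAGGTCA (1.51% of all promoters and 0.884% of those of tested genes), the AP-1 site TGACTCA (5.202% and 3.03%) and the CArG box of SRF (1.63% and 1.22%) had no match in them either. TATAAA was found once, in Nr4a2 at -164 on the opposite strand, in 13.6% of all promoters and in 6.43% of those of tested genes. GGGCGG, the core of the Sp1 site, occurred 3 times in Nr4a1, 5 times in Nr4a2 and 1 time in Nr4a3, in 35.7% of all promoters and in 66.5% of those of tested genes. Each motif was searched on both strands, and the motifs were chosen after the promoter sequences had been seen. A match describes these letters and is not evidence of binding.

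Nr4a1 was the most abundant member in each of the 10 libraries, Nr4a3 came next and Nr4a2 was lowest. Without stimulation Nr4a1 stood at 126 FPKM in wild-type cells and at 126 FPKM in the library labelled knockout, which placed it near the 97th percentile of all genes. Nr4a3 stood at 17.5 and 22.7 FPKM and Nr4a2 at 2.9 and 5.1 FPKM in the same 2 libraries. 

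After 2 hours of anti-IgM, Nr4a1 measured 806, 744, 826 and 856 FPKM in wild-type libraries A to D and 713, 675, 760.0 and 660.2 FPKM in knockout-labelled libraries A to D. All 8 stimulated libraries were far above both unstimulated ones, and the ranges of the genotypes overlapped, since knockout library C exceeded wild-type library B. The gene-level value of Nr4a1 thus did not separate the genotypes in either condition, so it gives no check of the genotype labels, and directions below are between libraries as labelled.

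Nr4a3 measured 118, 116, 129 and 132 FPKM in wild-type libraries A to D and 189, 168, 185 and 166 FPKM in the libraries labelled knockout. The lowest knockout value was above the highest wild-type value. Nr4a2 measured 10.87, 10.98, 11.08 and 12.23 FPKM in wild-type libraries A to D and 21.6, 18.7, 21.9 and 19.3 FPKM in the libraries labelled knockout. Here too the groups did not overlap, and wild-type library D was set apart from the other three. Within each stimulated group the order Nr4a1, Nr4a3, Nr4a2 was separated by gaps larger than the spread between libraries.

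**Figure D1:**
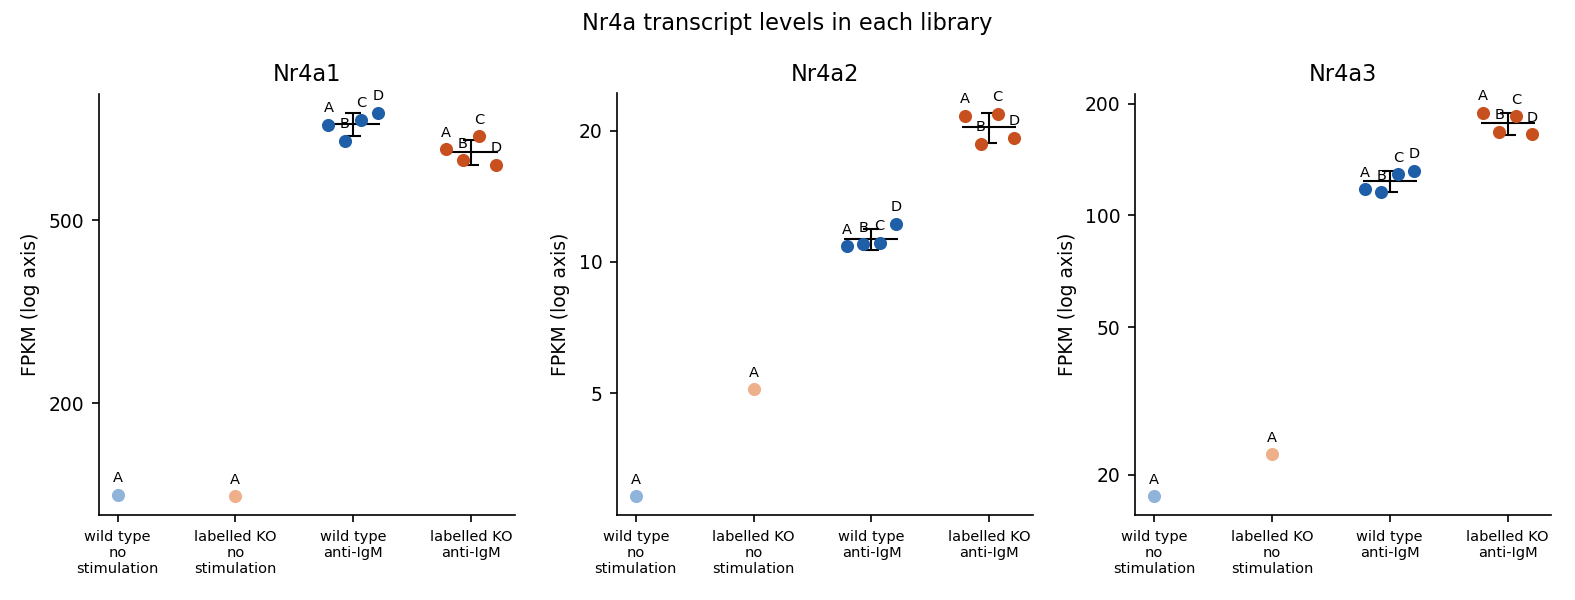
FPKM of Nr4a1, Nr4a2 and Nr4a3 on a log axis in the 10 libraries, by genotype and stimulation, with 1 point per library and bars for the mean and SD of the 4 stimulated libraries. Knockout-labelled libraries lie above wild type for Nr4a2 (18.7 to 21.9 against 10.9 to 12.2 FPKM) and Nr4a3 (166 to 189 against 116 to 132 FPKM), while the genotypes overlap for Nr4a1.

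All 3 genes rose with anti-IgM. Nr4a3, the receptor with the largest relative rise, went up 7.07-fold in wild-type and 7.81-fold in knockout-labelled cells on the FPKM scale. Nr4a1 rose 6.39-fold and 5.59-fold, and Nr4a2 rose 3.89-fold and 3.997-fold. In the fit of all 10 libraries, with a genotype term, the log2 change was 2.83 ± 0.0683 (SE) for Nr4a3, 2.57 ± 0.0682 for Nr4a1 and 1.73 ± 0.0728 for Nr4a2. The limma adjusted p-values were 5.88e-11, 1.05e-10 and 2.38e-09. These changes ranked 18th, 31st and 164th among rises of the 10225 genes, of which 7.94% were called higher and 12.4% lower, with a median change of -0.17. Under median-of-ratios scaling, which assumes that most genes do not change, 1159 genes were called higher and 805 lower in place of 812 and 1266, the median moved to 0.035, and the 3 receptors kept their calls.

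Taken within each genotype, the rise of Nr4a1 was 2.66 in wild-type cells and 2.47 in cells labelled knockout, with limma adjusted p-values of 4.16e-09 and 7.54e-09. For Nr4a3 the changes were 2.75 and 2.91 (adjusted p = 5.47e-09 and 4.61e-09), and for Nr4a2 they were 1.65 and 1.81 (adjusted p = 2.31e-07 and 1.34e-07). Among all tested genes, 8.79% were called higher in wild-type cells and 7.3% in cells labelled knockout. Each of these fits rests on a single unstimulated library per genotype, which was assumed to vary like the stimulated ones. Summed FPKM of the B cell markers fell from 3852 and 3616 without stimulation to between 1260 and 1374 after it, and the part of this shift in the receptors' rise was not tested. The marker sums of T cells, NK cells and plasma cells stood at 1.2 to 1.49, 0.88 to 1.05 and 77.0 to 90.2 FPKM before and at 1.25 to 2.83, 1.05 to 1.74 and 70.7 to 94.7 FPKM after. Myeloid marker sums were 71.0 and 83.2 FPKM before and 24.96 to 129.8 FPKM after. Sums of 3 erythroid markers were 37.3 and 12.1 FPKM before and 1.92 to 20.8 FPKM after, and Hbb-bs, a globin gene, fell by 1.77 on the log2 scale (limma adjusted p = 0.0402), a shift whose part in the receptors' rise was not tested.

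After anti-IgM, the libraries labelled knockout held more Nr4a2 and Nr4a3 transcript and, by a small margin, less Nr4a1 than wild type. Nr4a2 averaged 20.4 ± 1.63 FPKM (SD, n = 4) against 11.3 ± 0.633 (SD, n = 4), a ratio of 1.81. Nr4a3 averaged 177 ± 11.9 against 124 ± 8.21, a ratio of 1.43. Nr4a1 averaged 702.1 ± 44.6 against 808 ± 47.2, a ratio of 0.869.

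In the limma fit the log2 difference was 0.80 ± 0.0600 (SE) for Nr4a2 with an adjusted p of 4.58e-05, and 0.51 ± 0.0571 for Nr4a3 with an adjusted p of 0.000453. They ranked 23rd and 77th among the differences ordered from the highest. Nr4a1 differed by -0.20 ± 0.0531 with an adjusted p of 0.0432. In all, 9.72% of tested genes were called by genotype, 3.91% higher and 5.81% lower under the knockout label, around a median of -0.024. An exact two-sided permutation test over the 70 labellings of the 8 libraries gave p = 0.0286 for Nr4a2 and for Nr4a3, the smallest this design allows, and p = 0.0571 for Nr4a1. The 4 knockout-labelled libraries lay wholly above the 4 wild-type libraries for Nr4a2 and Nr4a3, as they did for 5.96% of tested genes.

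The calls of Nr4a2 and Nr4a3 held in each of the 21 alternative analyses. That of Nr4a1 was lost in 12 of 21, including median-of-ratios scaling (-0.16, limma adjusted p = 0.159) and leaving out wild-type library A, C or D or knockout library A, B or D (adjusted p from 0.0811 to 0.115). That scaling also turned the split of genotype calls from 400 higher and 594 lower to 559 higher and 377 lower. Plasma cell markers summed to 77.1 to 94.7 FPKM in the stimulated libraries labelled knockout and to 70.7 to 76.7 FPKM in wild type, and 1 of the 4, Prdm1, was called higher. The part of this shift in the receptors' difference was not tested. Myeloid marker sums overlapped between the genotypes (24.96 to 95.6 against 38.8 to 129.8 FPKM), as did those of T cells (1.25 to 2.83 against 1.9 to 2.49 FPKM).

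**Figure D2:**
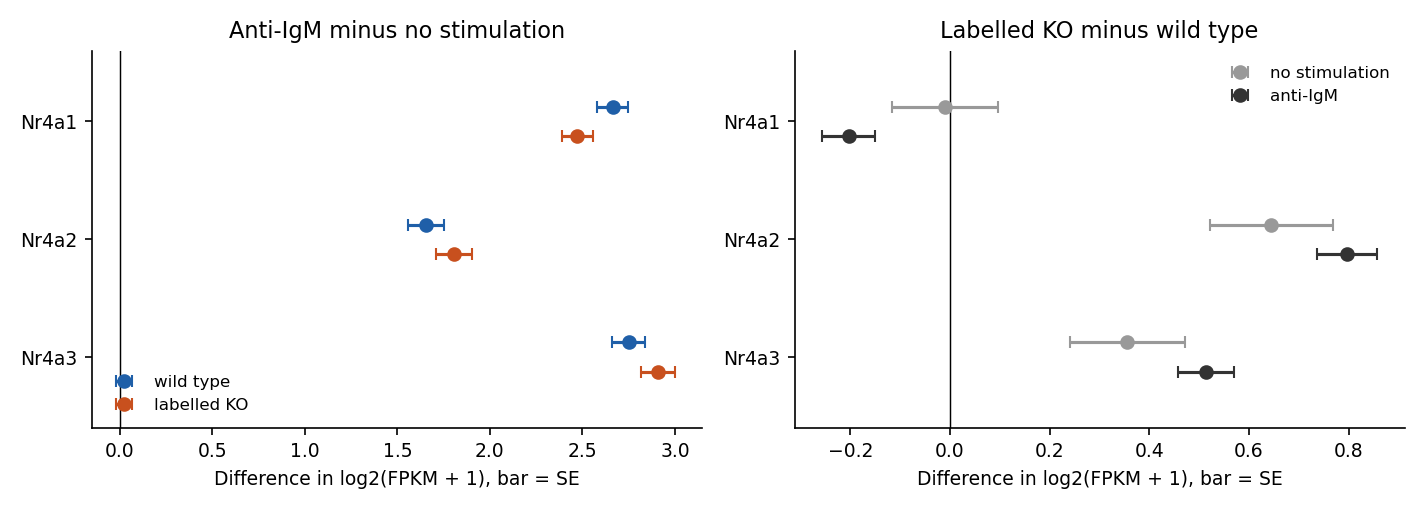
Differences in log2(FPKM + 1) from limma, as points with bars for the SE, for the response to anti-IgM in each genotype (left) and for libraries labelled knockout minus wild type without stimulation and after anti-IgM (right). The responses lie between 1.65 and 2.91, and the genotype difference after anti-IgM is 0.80 for Nr4a2, 0.51 for Nr4a3 and -0.20 for Nr4a1.

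Before stimulation Nr4a2 was also higher under the knockout label, and the difference of Nr4a3 did not pass the test. The unstimulated library labelled knockout held 1.76 times the FPKM of Nr4a2 and 1.30 times that of Nr4a3 in the wild-type library, while the ratio for Nr4a1 was 0.993. On the log2 scale Nr4a2 differed by 0.65 ± 0.123 (SE; limma adjusted p = 0.00590) and was called higher. Nr4a3 differed by 0.36 ± 0.115 with an adjusted p of 0.0518 and was not called. Nr4a1 differed by -0.0097 ± 0.106 with an adjusted p of 0.963. With 1 library per genotype, 22.9% of tested genes were called here, 1707 higher and 636 lower around a median of 0.067, so a call in this pair is common.

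The response to anti-IgM did not differ detectably between the genotypes for any of the 3 receptors. The knockout-labelled response minus the wild-type response was 0.15 ± 0.137 (SE) for Nr4a2, with a 95% interval from -0.16 to 0.46 and a limma adjusted p of 0.488. For Nr4a3 it was 0.16 ± 0.128, from -0.13 to 0.45, with an adjusted p of 0.434. For Nr4a1 it was -0.19 ± 0.118, from -0.46 to 0.073, with an adjusted p of 0.294. Among all tested genes 18.9% were called for this difference, 427 higher and 1504 lower around a median of -0.096. The intervals leave room for a larger response under the knockout label by up to 0.46 for Nr4a2 and 0.45 for Nr4a3, and for a smaller one of Nr4a1, down to -0.46. For Nr4a2, at 2.9 and 5.1 FPKM without stimulation, the value depended on the pseudocount, the amount added to FPKM before the log. Its response difference was 0.051 with a pseudocount of 0.1 and 0.28 with 5. Its unstimulated difference was 0.79 and 0.35 at these settings.

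These last comparisons lean on how the 2 unstimulated libraries are scaled. Expressed as TPM, which rescales every library to the same sum, the median difference of all genes in the unstimulated pair moved from 0.067 to 0.24 and the split of calls to 3675 higher and 233 lower. The median difference between responses moved from -0.096 to -0.26, with 175 genes higher and 3455 lower. Under that scaling Nr4a3 was called higher in the unstimulated pair (0.54, limma adjusted p = 0.00647), and Nr4a1 was called lower in the difference between responses (-0.37, adjusted p = 0.0395). Quantile normalization gave 1525 higher and 1182 lower in the unstimulated pair and 874 higher and 1207 lower for the difference between responses.

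Without stimulation the 3 transcripts added up to 147 FPKM in wild-type cells and 153 FPKM in cells labelled knockout. After anti-IgM the sum was 943 ± 55.0 FPKM (SD, n = 4; 870.8 to 1000.4) in wild-type libraries and 899 ± 56.4 (845 to 967) in those labelled knockout. These ranges overlapped. The knockout-labelled mean was lower by 106 FPKM for Nr4a1 and higher by 53.3 FPKM for Nr4a3 and by 9.09 FPKM for Nr4a2. Under the knockout label the sum includes transcript of the targeted gene, and whether that RNA encodes working receptor was not tested. Nr4a2 and Nr4a3 alone summed to 135 ± 8.70 FPKM (127 to 144) in stimulated wild-type libraries. In stimulated libraries labelled knockout they summed to 197 ± 13.4 FPKM (185 to 211), without overlap. In the unstimulated wild-type and knockout-labelled libraries they summed to 20.4 and 27.8 FPKM.

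The makeup of the sum differed more clearly than its size, and these shares do not depend on how a library is scaled. Nr4a1 made up 85.7% ± 0.377 of the sum in stimulated wild-type libraries (85.5% to 86.3%) and 78.1% ± 0.616 in those labelled knockout (77.2% to 78.6%). The share of Nr4a3 was 13.1% ± 0.357 against 19.7% ± 0.568. The share of Nr4a2 was 1.198% ± 0.0528 against 2.26% ± 0.0708. Groups did not overlap for any of the 3 shares. Without stimulation the shares of Nr4a1, Nr4a3 and Nr4a2 were 86.1%, 11.9% and 1.98% in wild-type cells and 81.9%, 14.8% and 3.33% in cells labelled knockout.

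Each FPKM of Nr4a2 was matched by 71.6 ± 3.28 FPKM of Nr4a1 in stimulated wild-type libraries and by 34.5 ± 1.29 in those labelled knockout. For Nr4a3 the corresponding ratios were 6.54 ± 0.212 and 3.97 ± 0.143. Nr4a3 exceeded Nr4a2 by 10.9 ± 0.486 times in wild type and by 8.69 ± 0.230 times in knockout-labelled libraries, without overlap. In the unstimulated pair that ratio was 6.03 and 4.45, below both stimulated groups, as Nr4a3 rose by a larger factor than Nr4a2 in both genotypes.

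**Figure D3:**
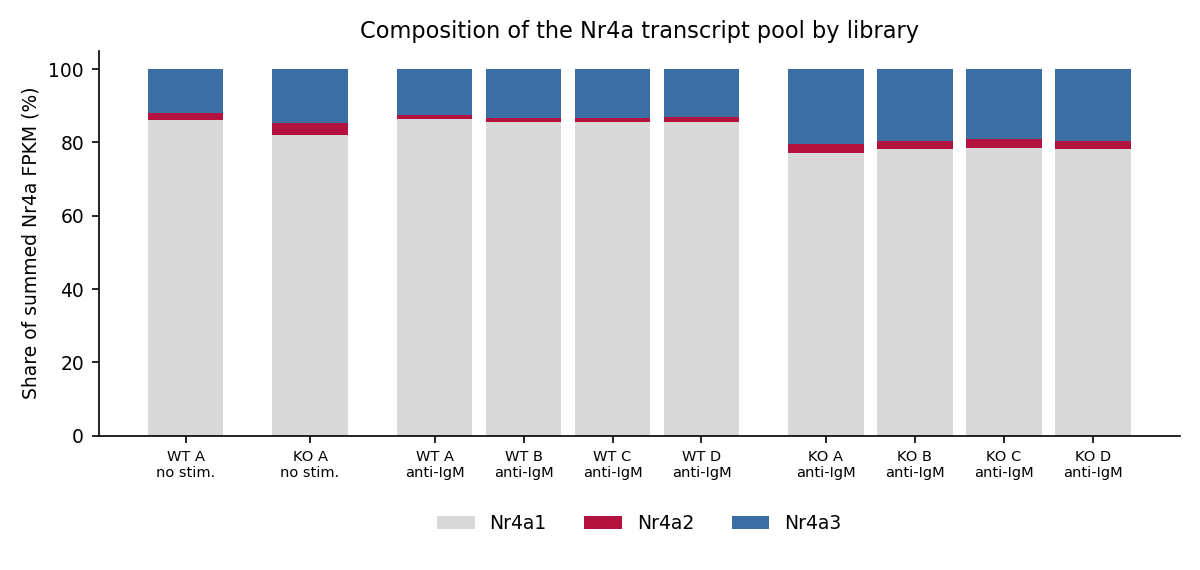
Share of the summed Nr4a FPKM held by each receptor in each of the 10 libraries. Nr4a1 holds 85.5% to 86.3% in stimulated wild-type libraries and 77.2% to 78.6% in those labelled knockout, and Nr4a3 fills most of the difference.

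Within a group the 3 receptors tended to be high or low in the same libraries. Wild-type library D held the highest value of each member, above its group mean by 0.085 (Nr4a1), 0.11 (Nr4a2) and 0.098 (Nr4a3) on the log2 scale. The knockout libraries A and C were above their group mean for all 3 members and libraries B and D below it for all 3. In wild-type libraries A and B all 3 were below the mean, by as much as 0.12 (Nr4a1 in B), while in library C Nr4a1 (0.033) and Nr4a3 (0.065) were above it and Nr4a2 (-0.023) below. The median deviation of 29 other immediate early genes was -0.012, -0.025, -0.019 and 0.055 in wild-type A to D and 0.037, -0.021, 0.029 and -0.051 in knockout A to D. It had the sign of all 3 receptors in 7 of the 8 libraries and that of Nr4a2 alone in wild-type C. The median over all tested genes stayed between -0.015 and 0.018. The coefficient of variation was between 5.60% and 7.99% for each receptor in each group.

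Across the 10 libraries, the correlation of log2(FPKM + 1) was 0.96 between Nr4a1 and Nr4a3, 0.96 between Nr4a2 and Nr4a3, and 0.83 between Nr4a1 and Nr4a2. These points share the contrast between 2 unstimulated and 8 stimulated libraries and that between the genotypes, so the values, and the genotype differences of genes picked by them, are a description. Of 9176 named genes, those most like Nr4a1 were Rpusd2, Osgin2, Nfkbib, Gps1 and Ddx1, with r from 0.997 to 0.998. Nfkbib encodes an inhibitor of NF-κB, and it rose from 32.9 and 35.6 FPKM to 101 ± 3.67 and 96.6 ± 3.49.

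The genes most like Nr4a3 were Cdk5r1, Agfg1, Dusp2, Hilpda and Maff, with r from 0.9976 to 0.9988. Dusp2 encodes a phosphatase that switches off MAP kinases, and Maff a small Maf transcription factor. Dusp2 stood at 320 ± 4.96 FPKM in wild-type and 366 ± 12.1 in knockout-labelled libraries after anti-IgM. Those most like Nr4a2 were Fam43a, Ccl3, Fam114a1, Sh3bp5 and Ncf1 (r from 0.991 to 0.993). Ccl3, a chemokine that draws T cells, stood at 86.5 ± 6.16 FPKM in wild-type and 165 ± 14.3 in knockout-labelled libraries.

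**Figure D4:**
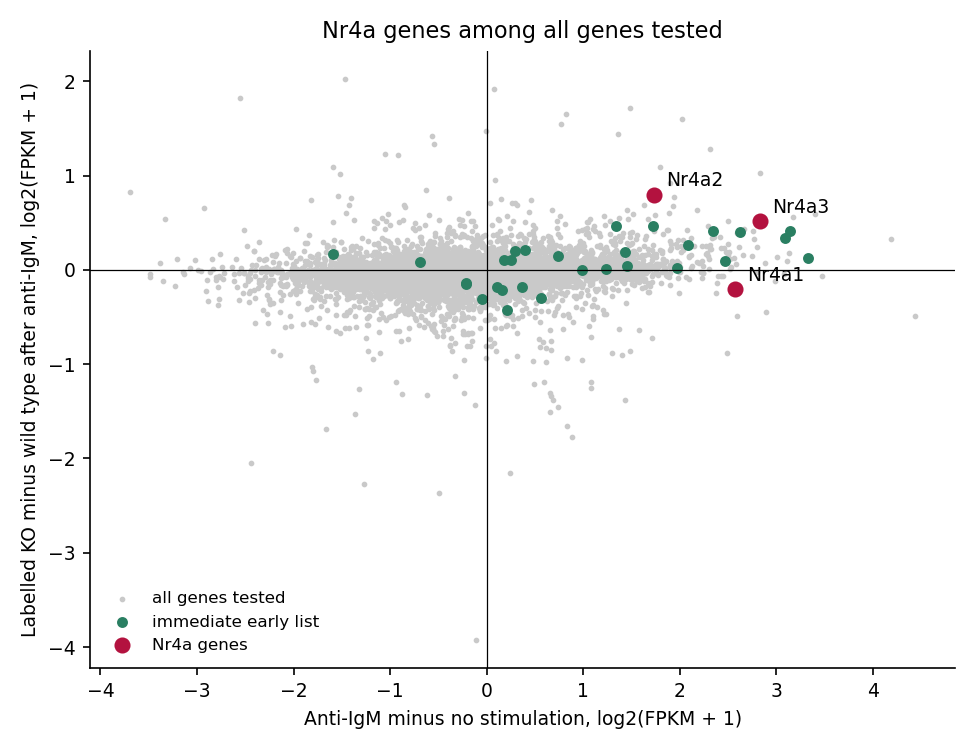
Log2 change with anti-IgM (x axis) against log2 difference between genotypes after anti-IgM (y axis) for the 10225 tested genes, with the 3 receptors in red and 29 other immediate early genes in green. Nr4a1 (2.57, -0.20) and Nr4a3 (2.83, 0.51) lie to the right on opposite sides of 0, and Nr4a2 (1.73, 0.80) lies above both.

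The Nr4a genes were set beside the rest of the nuclear receptor superfamily, of which 36 other members were in the table. Nr4a1 was the most abundant of the 39 receptors in every group. Nr4a3 ranked 7th and 8th in the unstimulated wild-type and knockout libraries and 2nd in both stimulated groups. Nr4a2 ranked 12th and 11th without stimulation, 10th in stimulated wild-type cells and 7th in stimulated cells labelled knockout. The 3 Nr4a genes held 41.6% and 39.0% of the summed receptor FPKM without stimulation and 80.9% and 80.1% after it, in the same order of genotypes.

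The next receptors after stimulation were Nr1h2, the oxysterol receptor LXRβ (45.5 and 43.1 FPKM in wild-type and knockout-labelled cells), and Rara, the retinoic acid receptor α (38.9 and 45.8 FPKM). Of 13 other receptors tested, 1 was called higher by genotype (Rara, 0.23, limma adjusted p = 0.00273) and 1 lower (Esrra, -0.18, adjusted p = 0.0484). With stimulation 2 were called higher, the germ cell nuclear factor gene Nr6a1 (1.39) and the clock receptor Nr1d1 (1.26), and the glucocorticoid receptor Nr3c1 fell by 1.12 on the log2 scale. Over all tested genes the shares called higher and lower were 3.91% and 5.81% by genotype and 7.94% and 12.4% with stimulation. The median change of the 13 was -0.0044 by genotype and -0.068 with stimulation, against -0.024 and -0.17 over all genes. Rxrb, the retinoid X receptor gene among the possible partners that passed the filter, stood at 30.2 and 29.6 FPKM after stimulation.

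**Figure D5:**
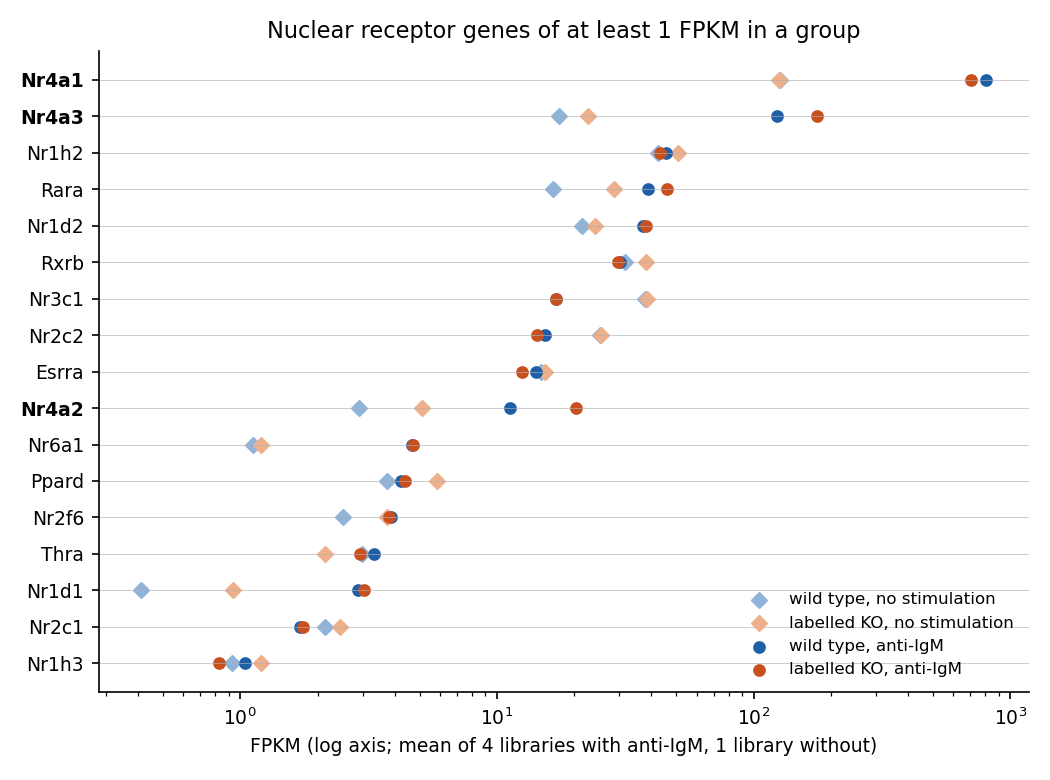
Mean FPKM on a log axis of the 17 nuclear receptor genes that reached 1 FPKM in at least 1 group, for the 4 groups. Nr4a1 is highest in each group, and Nr4a3 moves from 17.5 and 22.7 FPKM without stimulation to 124 and 177 FPKM after it.

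Genes that carry the antigen receptor signal towards the Nr4a promoters were called in both directions by genotype. Of 22 genes from the receptor to the MAP kinases, 2 were called higher (Vav1, an exchange factor, 0.37, and the Ras activator Rasgrp3, 0.28) and 4 lower in libraries labelled knockout. The lower ones included Cd79b, a signalling chain of the receptor (-0.32), and the kinases Lyn (-0.20) and Btk (-0.17). Over all tested genes 3.91% were called higher and 5.81% lower. The median of the 22 was 0.0052. With anti-IgM none of the 22 was called higher and 8 were called lower, against 7.94% and 12.4% of all tested genes, with Syk (-2.22), Cd79b (-2.13), Rasgrp3 (-1.86) and Lyn (-1.37) changing most and a median of -0.42.

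Of 34 tested genes of the calcium, NFAT, MEF2, CREB and SRF branch, 6 were called higher and 2 lower by genotype (3.91% and 5.81% over all tested genes), with a median of 0.0023. The calcium channel gene Orai1 stood at 39.3 ± 0.598 FPKM in wild-type and 49.1 ± 2.597 in knockout-labelled libraries (0.31). Nfatc1, a calcium-dependent factor, stood at 166 ± 4.22 and 198 ± 3.88 (0.25), and Mef2d (0.14) and the CREB coactivator Crtc2 (0.14) were also higher. Hdac9 (-0.49), which represses MEF2 targets, and the SRF partner Elk4 (-0.17) were lower. With anti-IgM Orai1 (2.03) and Nfatc1 (2.01) rose, while Hdac7 (-1.68), Itpr3 (-1.27), Mef2c (-1.17) and Hdac5 (-1.14) fell. These are all the called members, 2 higher and 4 lower where 7.94% and 12.4% of all tested genes were, and the list median was -0.16.

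Of 29 tested partners and coregulators of Nr4a proteins, 1 was called higher by genotype and 3 lower, against 3.91% and 5.81% of all tested genes, around a median of -0.024. Hdac1, a deacetylase of corepressor complexes, was higher (0.27). Nrip1, a nuclear receptor corepressor, was at 9.39 ± 0.427 FPKM in stimulated wild-type libraries and at 2.66 ± 0.0810 in those labelled knockout, a log2 difference of -1.50 (limma adjusted p = 5.58e-07). Without stimulation Nrip1 was at 2.86 and 2.97 FPKM. Park7 and Ncoa3 were lower by smaller amounts, both with a log2 difference of -0.14. With stimulation the acetyltransferase gene Kat2b fell by 1.68 and Bcl2, whose product Nr4a1 can bind, by 1.37 on the log2 scale, and no other of the 29 was called (7.94% higher and 12.4% lower over all tested genes).

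Among 29 other immediate early genes, 11 were called higher and 4 lower by genotype, against 3.91% and 5.81% of all tested genes, and their median was 0.10. Fosl2 (0.47), Cd69 (0.46), Egr3 (0.41) and Maff (0.41) were the highest, and Dusp1 (-0.43), Dusp5 (-0.30), Zfp36 (-0.21) and Klf6 (-0.15) were lower. The differences of Nr4a3 (0.51) and Nr4a2 (0.80) after anti-IgM were larger than each of these. In the unstimulated pair, with 1 library per genotype, the median difference of the 29 was 0.42, against 0.067 over all tested genes. There Junb (0.80), Egr2 (0.80), Fos (0.79), Jund (0.73) and Egr3 (0.67) differed by more than Nr4a2 (0.65), and the rest of the list by less. Nr4a3 (0.36) lay below the list median there. With anti-IgM 13 of the 29 were called higher and 1 lower, against 7.94% and 12.4% of all tested genes, around a median of 0.74. Myc (3.33), Maff (3.15), Nfkbid (3.09) and Egr2 (2.62) rose most, and Btg2 fell by 1.60. The rises of Nr4a3 (2.83) and Nr4a1 (2.57) fell within the range of these genes.

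Of 15 tested genes that have been described as sensitive to Nr4a loss in lymphocytes, 9 were called higher and 1 lower by genotype, with a median of 0.41 (all tested genes: 3.91% higher, 5.81% lower). Some of these genes were listed because results from these libraries were already known, so the count is not independent evidence. The chemokine genes Ccl4 (1.02) and Ccl3 (0.92), the surface receptor gene Slamf1 (0.95) and the transcription factor gene Batf (0.78) were higher, and Havcr2 (-0.78) was lower. With stimulation 9 of the 15 were called higher and 2 lower (7.94% and 12.4% of all tested genes), around a median of 1.34, among them Myc (3.33) and Irf4 (3.11) and the quiescence factor Klf2 (-2.84).

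The nearest tested genes on the same chromosome were also examined, which for Nr4a2 lay up to 4984 kb away. Of the 10 tested neighbours of Nr4a1 (5 on each side), 2 were called higher by genotype and 1 lower, where 3.91% and 5.81% of all tested genes were. With anti-IgM 2 of these 10 were called higher and 3 lower, against 7.94% and 12.4% of all tested genes. Grasp, 21.5 kb before Nr4a1, differed by 0.28 (limma adjusted p = 0.0269) and rose by 1.97 with anti-IgM. Galnt6, 525 kb before it, differed by 0.33, and Atg101, 9.48 kb after it, by -0.22 (adjusted p = 0.0111). Of the 10 neighbours of Nr4a2, 1 was called higher (Gpd2, 114 kb away, 0.22) and 2 lower (Cytip, 1005 kb away, -0.57, and Arl5a, 4682 kb away, -0.14). Of the 10 neighbours of Nr4a3, none was called higher by limma and 1 lower (Coro2a, 1443 kb away, -0.19). With anti-IgM no neighbour of Nr4a2 was called higher and 1 lower, and no neighbour of Nr4a3 higher and 2 lower.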

How the data were processed

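RNA was made into stranded mRNA libraries, per the labels' protocols. The authors deposited FPKM per gene for the 10 libraries; STAR 2.4, RSEM 1.2.14 and mm10 are named in the submitters' processing notes. Groups come from the labels. The receptors and gene lists were chosen with earlier results of these data known. Genes averaging 1 FPKM or more were tested on log2(FPKM + 1) with limma 3.58.1 (lmFit, eBayes with trend) in R 4.3.3. The genotype fit used the 8 stimulated libraries, the stimulation fit all 10 with genotype as a term, and the 4-group fit gave responses and their difference. On simulated data for the genotype comparison (10225 genes), 30 of 50 genes changed 1.2-fold, 43 of 50 at 1.5-fold, 48 of 50 at 2-fold and 50 of 50 at 3-fold were called, with 11 false calls. Named genes are the 3 receptors, the 5 most correlated genes each, up to 4 called list members a direction with the largest change, and called neighbours; some are not reported here. Total read counts are not given in the sources used here. Relative depth, estimated from the smallest FPKM steps, was 0.897 and 0.984 in the unstimulated libraries and 0.955 to 1.08 in the stimulated ones, so FPKM precision is similar. Alternatives varied the pseudocount, filter, scaling, variance model and libraries.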

Additional observations from a re-analysis of the deposited data

Results flagged for a closer look

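Nr4a2 in stimulated wild-type library D, at 12.23 FPKM, stood apart from the other 3 wild-type libraries, which lay between 10.87 and 11.08 FPKM. Its gap to the nearest library exceeded the 95% critical value of Dixon's test for 4 samples. The check was made on 10 sets of 4 libraries, and chance marks about 1 in 20. Without this library the log2 difference of Nr4a2 between genotypes after anti-IgM was 0.84 and kept its call.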

How the results depend on the processing

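The rises of the 3 receptors with anti-IgM kept their direction and call in every alternative run, as did the genotype differences of Nr4a2 and Nr4a3 after anti-IgM. The Nr4a1 difference lost its call with no filter (-0.20, limma adjusted p = 0.122), TPM (-0.198, 0.0524), median-of-ratios scaling (-0.159, 0.159), immunoglobulin genes left out (-0.198, 0.0520), no variance trend (-0.20, 0.0759), all 10 libraries (-0.164, 0.112) and in 6 of 8 leave-one-out fits (-0.24 to -0.17 over all 8). Over all 21 alternatives its adjusted p ran from 0.0200 to 0.159. With a pseudocount of 5 the genes called numbered 1132 for stimulation, 1160 for the wild-type and 1150 for the knockout-labelled response. Under TPM, and with immunoglobulin genes left out, those called for the difference between responses numbered 3630 and 3644, and in the unstimulated pair 3908 and 3918. These 2 settings moved the response difference of Nr4a1 to -0.368 in both, past the threshold, and its unstimulated difference to 0.170. They moved the response difference of Nr4a3 to -0.017 and -0.0074 and its unstimulated difference to 0.538 and 0.526, past the threshold. TPM turned the response difference of Nr4a2 to -0.028. The unstimulated Nr4a3 difference also passed with a pseudocount of 0.1 (0.372), a minimum of 5 FPKM (0.356), robust eBayes (0.356) and without stimulated knockout library A (0.356). The summed Nr4a FPKM became 126.1 (same library sum) and 129.6 (median-of-ratios) in unstimulated wild type, and 133.6 (median-of-ratios) in the unstimulated knockout-labelled library. The cause of these shifts was not tested. Same-letter correlations were -0.021, 0.045, 0.0075 and -0.12, and different-letter ones ran from -0.087 to 0.12. These few values cannot show whether letters pair the libraries, which the labels do not say. With letter as a replicate block 740 genes were called by genotype in place of 994, and 2076 with letter within genotype as a block for stimulation in place of 2078. The blocked genotype differences kept their calls, at adjusted p of 0.0485 for Nr4a1 (-0.20), 0.00131 for Nr4a2 (0.80) and 0.00357 for Nr4a3 (0.51). Each unstimulated group is a single library, which limits the comparisons that use it.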
